A study of Mus musculus with 7 samples.

Results

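The replication-dependent histone genes were described in single cells of mouse brain tumours. They were taken as every gene whose symbol starts with Hist1h, Hist2h, Hist3h or Hist4h, which gave 67 of the 32285 genes measured. The 67 members divide into 6 genes for the linker histone H1 and 18 for H2A, 18 for H2B, 12 for H3 and 13 for H4, the core histones. On GRCm38, 54 lie on chromosome 13 (21715763 to 23934851), 10 on chromosome 3 (96219865 to 96270132), 2 on chromosome 11 (58948920 to 58956830) and 1 on chromosome 6 (136801553 to 136804415).

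All tumours came from 1 glioma line, NSCG-mCherry, labelled EGFRvIII+ and Arf/Ink4a-/-, grown in C57BL/6 mice aged 7 to 10 weeks with the genotype label WT. Each of the 7 libraries was made from tumours of at least 2 pooled mice, collected at about day 14 and dissociated whole, and cells were counted by droplet sequencing of RNA 3′ ends. UT was untreated (1 library). IgG received an IgG2b isotype control at 10 mg/kg (2 libraries), and the labels' protocol for the BPI experiment adds a gavage diluent to that control. BP combined the VEGF-blocking antibody B20 (5 mg/kg) and a PD-L1 antibody (10 mg/kg), in 2 libraries. BPI received the same pair with IPI-145, a PI3K delta and gamma inhibitor, at 10 mg/kg (1 library). The IgG, BP and BPI libraries came after 3 rounds of treatment. CD40 mice were given 2 doses of 100 µg of a CD40 agonist antibody (1 library), with or without a dendritic cell vaccine, which is not given per library. Wherever 7 values are listed, the order is UT, BP replicate 1, IgG replicate 1, BP replicate 2, BPI, CD40 and IgG replicate 2. The labels name IgG replicate 1, BP replicate 2 and BPI with consecutive library names (set A), and likewise CD40 and IgG replicate 2 (set B).

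Replication-dependent histone genes supply the histones that package newly copied DNA, and their messenger RNA normally accumulates while DNA is replicated and is degraded afterwards. H2A, H2B, H3 and H4 form the nucleosome core and H1 binds the DNA between cores. Most messenger RNAs end in a poly(A) tail, but these normally end just after a short stem-loop that is bound by the stem-loop binding protein Slbp. The 3′ kit used here primes on poly(A), so the counts are of whichever histone transcripts carried such a stretch, and levels are given as CPM, a gene's UMIs scaled to a fixed total of UMIs of the summed cells. A UMI marks 1 captured molecule whatever the transcript's length, so no length scaling was applied.

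A 16-base match to the histone stem-loop was found in the transcript models (GENCODE vM21, GRCm38) of 46 of 67 members, against 80 of all 55450 genes with a model. The match was present in 4 of 6 H1, 11 of 18 H2A, 10 of 18 H2B, 9 of 12 H3 and 12 of 13 H4 members. The sites below are shown for members that carry much of the signal and for the 3 commonest forms of the loop, with the stem-loop in capitals and its flanks in lower case.
Hist1h1e: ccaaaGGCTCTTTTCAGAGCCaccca
Hist1h1c: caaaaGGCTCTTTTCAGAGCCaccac
Hist1h2ab: acaaaGGCTCTTTTCAGAGCCaccca
Hist1h2ap: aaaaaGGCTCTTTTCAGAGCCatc
Hist1h3c: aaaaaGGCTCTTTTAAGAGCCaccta
Hist1h4d: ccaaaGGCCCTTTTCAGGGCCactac
The form in Hist1h1e was shared by 26 members, that in Hist1h4d by 7 and that in Hist1h3c by 6, among 8 distinct forms. The models differ in what follows the loop. The Hist1h2ap model (chromosome 13, 21833026 to 21833507, minus strand) ends 3 bases after it and the Hist1h2ab model (23751126 to 23751598, plus) 11 bases after it. The Hist1h1e model (23620629 to 23622558, minus) runs on for 1153 bases, that of Hist1h1c (23738808 to 23740367, plus) for 840 and that of Hist1h4d (23581598 to 23582735, plus) for 770. In all, 18 models ran on for more than 200 bases, 28 ended nearer and 21 had no match. The model of Hist1h1b (21779883 to 21780625, minus) is one of those with no match. For 13 members the models end at the stop codon and hold no bases after it, so no match does not show that a gene lacks the loop.

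Near-identical copies limit what single members can show. In 27 members at least 50% of the 90-base stretches of the transcript also occur in another gene, in 61 at least 1 does, and in 6 none does. Hist1h2ap shares 92.4% of its stretches, so many of its reads may not be told apart from those of its copies, while Hist1h1b shares 0%. Hist1h1e overlaps another member, Hist1h2be, in the annotation.

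Promoters were matched for 61 members in the RefSeq table (GRCm38.p6), and 3 motifs were searched on both strands in the 250 bases before each start. TATAAA was present in 47.5% of members' promoters against 14.3% of 27025 promoters of all genes, CCAAT in 82.0% against 37.5%, and ATGCAAAT in 23.0% against 1.81%. CCAAT was in every matched H1, H2A and H2B promoter, in 8 of 10 of H3 and in 3 of 12 of H4. ATGCAAAT was in 41.2% of H2A and 43.75% of H2B promoters and in 0% of the rest. The 150 bases before the start of 4 members, from H1, H2A and H4, are printed with the motifs in capitals (ATTGG is CCAAT read on the other strand); Hist1h1b lies at chr13:21780626-21780775 (minus), Hist1h1e at chr13:23622559-23622708 (minus), Hist1h2ab at chr13:23750938-23751087 (plus) and Hist1h4d at chr13:23581418-23581567 (plus).
Hist1h1b: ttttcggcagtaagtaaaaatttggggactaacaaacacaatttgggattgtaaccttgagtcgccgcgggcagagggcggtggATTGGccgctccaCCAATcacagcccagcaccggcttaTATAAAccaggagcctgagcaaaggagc
Hist1h1e: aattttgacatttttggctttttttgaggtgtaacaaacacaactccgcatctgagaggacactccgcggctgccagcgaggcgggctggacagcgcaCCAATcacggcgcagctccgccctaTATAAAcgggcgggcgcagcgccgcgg
Hist1h2ab: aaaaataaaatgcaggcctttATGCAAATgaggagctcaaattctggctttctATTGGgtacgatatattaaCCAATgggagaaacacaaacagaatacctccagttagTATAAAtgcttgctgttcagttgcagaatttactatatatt
Hist1h4d: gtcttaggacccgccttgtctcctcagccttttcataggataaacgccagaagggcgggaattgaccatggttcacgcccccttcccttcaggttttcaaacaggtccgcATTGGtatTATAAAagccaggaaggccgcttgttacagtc
A letter match describes the sequence only and is not a measurement of binding.

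Libraries held 68997476 to 186793886 UMIs, and 48588 cells were kept, 5373 to 9650 per library. Clusters were named from marker genes without using the members, and 9.29% of cells stayed unnamed (28.4% of UT). The barcodes of UT come from a list that the remaining 6 libraries do not use, and UT and BP replicate 1 fell largely into tumour-like clusters of their own, so results that rest on them are given with and without them. Pairs of libraries shared 0 to 23 cell barcodes. A pooled library is 1 replicate, so p-values measure only the spread between these libraries.

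Tumour-like cells with at least 1 UMI of Top2a or Mki67, proliferation genes that are not members, are called cycling, and the remainder other cells. The 67 members together stood at 861, 623, 3619, 3151, 2619, 3675 and 3642 CPM in cycling tumour-like cells and at 424, 334, 734, 787, 588, 566 and 562 CPM in other tumour-like cells. Cycling cells were higher in every library. The mean over libraries was 2598 ± 1324 CPM (SD, n = 7) in cycling and 571 ± 159 CPM (SD, n = 7) in other cells. UT and BP replicate 1 were the lowest in both states. Hist1h1e made up 24.8% of the cycling level, Hist1h4d 16.5% and Hist1h1b 10.3%, so that 3 members of 67 gave 51.6% of the mean over libraries. In UT the leading member was another one, Hist1h2ap, with 402 of 861 CPM, where Hist1h1e, Hist1h4d and Hist1h1b had 28.3, 8.42 and 15.8 CPM.

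**Figure D1:**
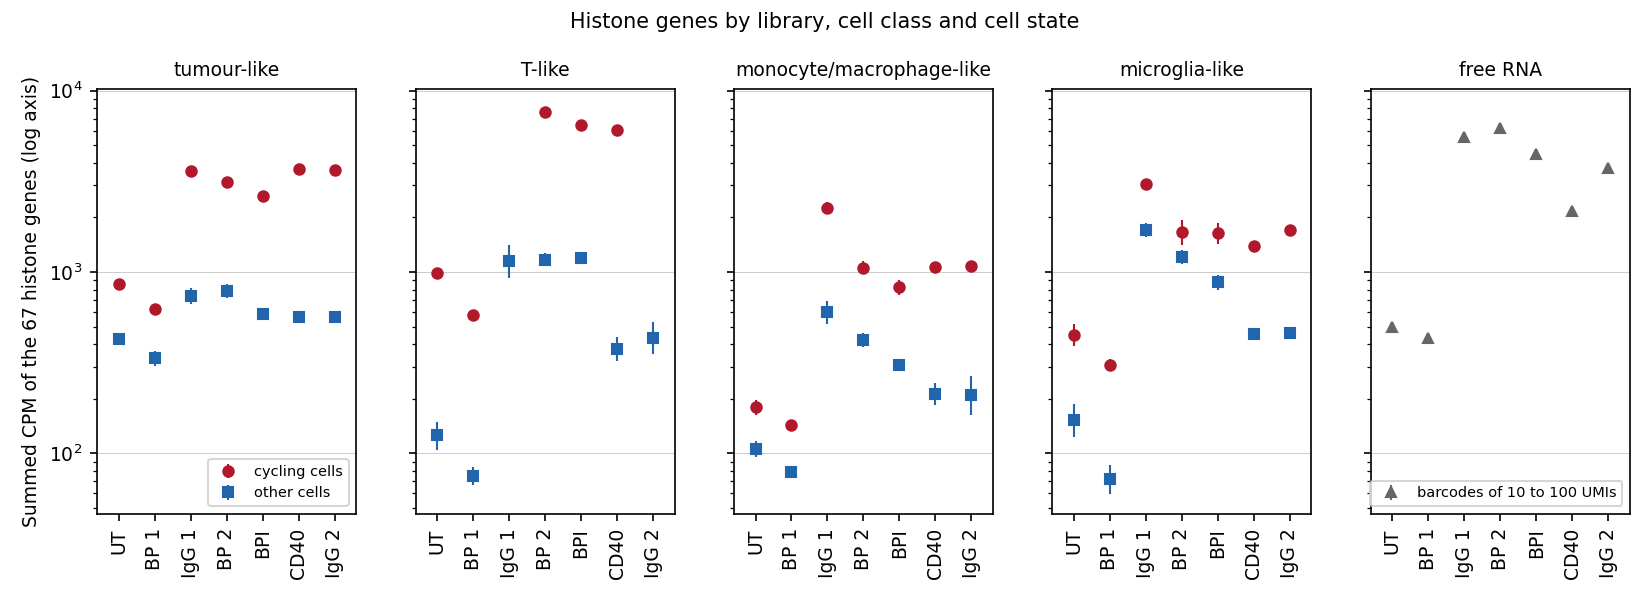
Summed CPM of the 67 histone genes (log axis) by library in tumour-like, T-like, monocyte/macrophage-like and microglia-like cells and in barcodes of 10 to 100 UMIs (free RNA); circles are cycling cells, squares other cells, and bars are exact 95% Poisson intervals. Tumour-like circles lie at 623 to 3675 CPM above their squares in all 7 libraries, and UT and BP replicate 1 are lowest in every panel with cycling cells.

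Cycling cells were also deeper, with median UMIs of 10703 to 21417 per cell against 1871 to 8212 in other cells. Within bins of depth, chosen after seeing the data, the members' CPM was higher in cycling cells in all 24 library and bin pairs that held both states. Depth was not matched further inside a bin. The smallest gap was 5279 against 5225 CPM, in IgG replicate 1 cells of 1000 to 2000 UMIs. Barcodes of 10 to 100 UMIs, which hold free RNA, carried the members at 500, 433, 5571, 6203, 4486, 2155 and 3736 CPM, and the part of free RNA in the cells' levels was not tested.

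Among the H1 genes, which encode linker histones, Hist1h1e stood at 28.3, 86.1, 1114, 951, 857, 675 and 806 CPM in cycling tumour-like cells and at 4.17, 28.4, 213, 218, 158, 99.6 and 113 CPM in other cells. UT and BP replicate 1 were far below the other 5 libraries in both states. Hist1h1b, another linker histone gene, had a different order of libraries, with 15.8, 155, 102, 119, 92.2, 681 and 704 CPM in cycling cells. CD40 and IgG replicate 2 were the highest, BP replicate 1 came next and UT was the lowest. Hist1h1c, also a linker histone gene, was at 32.2 to 173 CPM in cycling and 24.1 to 92.0 CPM in other cells, and in UT and BP replicate 1 it was lower in cycling than in other cells (68.9 against 92.0 and 32.2 against 49.7 CPM).

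Among the H2A genes, Hist1h2ap had 402, 41.5, 254, 213, 133, 23.5 and 46.9 CPM in cycling tumour-like cells and 74.7, 8.51, 19.0, 25.1, 15.8, 1.26 and 3.67 CPM in other cells. Its highest library was UT, the reverse of most members, and CD40 was the lowest. Hist1h2ab, another H2A gene, had 0.94, 5.65, 125, 108, 93.2, 251 and 164 CPM in cycling cells, so its order ran the other way, with UT lowest and CD40 highest. Hist2h2ac on chromosome 3 ranged from 1.84 CPM in UT to 210.1 CPM in IgG replicate 1. Hist3h2a, the H2A gene on chromosome 11, was lower in cycling than in other cells in 6 of 7 libraries and nearly level in UT, at 45.6 against 45.5 CPM.

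Among the H2B genes, Hist2h2bb stood at 0.65, 8.55, 167, 119, 98.1, 73.1 and 89.9 CPM in cycling tumour-like cells. UT and BP replicate 1 did not overlap with the other 5 libraries. Hist1h2bc had 91.8, 24.9, 27.3, 33.5, 25.5, 37.5 and 37.4 CPM in cycling cells and 105, 63.1, 11.4, 25.1, 23.3, 72.3 and 86.7 CPM in other cells. Its cycling level was lower than its other level in UT, BP replicate 1, CD40 and IgG replicate 2 and higher in the 3 libraries of set A. Hist1h2be, also an H2B gene, was at 3.87 to 66.4 CPM in cycling and 0.89 to 16.8 CPM in other cells.

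Among the H3 genes, Hist1h3c stood at 2.17, 24.7, 135, 111, 71.7, 145 and 137.4 CPM in cycling tumour-like cells, and among the H4 genes Hist1h4d stood at 8.42, 51.2, 540, 538, 517, 695 and 652 CPM. In both, UT was lowest, BP replicate 1 next and the other 5 libraries were well above them. Hist1h4d was also high in other cells of the same 5 libraries, at 96.3 to 194 CPM. Hist2h3c1, an H3 gene on chromosome 3 whose transcript stretches all occur in another gene, was at 0.45 to 4.88 CPM in cycling and 1.68 to 5.95 CPM in other cells.

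In the edgeR quasi-likelihood test with library as a block, 59 members passed the filter on low counts, and 45 rose and 2 fell in cycling against other tumour-like cells, where 9.31% of the 17050 genes tested rose and 5.05% fell. The members' median log2 difference was 2.53, against 0.06 over all genes tested. With no filter, 47 of 67 rose and 2 fell. Under another scaling (RLE) the split over all genes changed from 1587 higher and 861 lower to 865 higher and 1557 lower, and for the members 44 rose and 3 fell. A wider tumour-like class, added after seeing the data, gave 25 members called in either direction. Most cells that it added were shallow (median depth 0.14 relative to the library medians), in a cluster with 1 of 11 tumour markers raised. The leading genes of that cluster, such as Wfdc2 and Ifitm1, also led tumour-like clusters. The tumour-like class itself held 2 clusters nearly as shallow (0.18 and 0.16), each with 4 of 11 markers raised. With cells thinned to 1000 UMIs 42 members were called, and without library as a block 3 were.

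By type, 5 of 5 tested H1 genes rose (median log2 difference 2.75), 13 of 16 H2A (2.83), 12 of 15 H2B (2.63), 8 of 11 H3 (3.04) and 7 of 12 H4 (1.54). Hist1h1e rose by 2.38 ± 0.11 (log2, SE; edgeR adjusted p = 2.2e-09) and Hist1h1b by 3.19 ± 0.24 (adjusted p = 4.5e-07). Hist1h1c rose by 1.03 ± 0.30 (edgeR adjusted p = 0.031), a call that was lost under RLE scaling (0.91) and with DESeq2 (1.08). Among core histone genes the log2 rise was 3.55 ± 0.18 (SE) for Hist1h2ab, 2.94 ± 0.17 for Hist1h2ap, 2.53 ± 0.30 for Hist2h2ac, 2.65 ± 0.21 for Hist2h2bb and 2.34 ± 0.23 for Hist1h2be. For H3 it was 3.17 ± 0.23 for Hist1h3c, 3.04 ± 0.23 for Hist1h3e and 3.07 ± 0.28 for Hist1h3f, and for H4 1.89 ± 0.15 for Hist1h4d and 2.10 ± 0.22 for Hist1h4c. Hist1h4h, at 0.87 ± 0.29, missed the threshold (edgeR adjusted p = 0.054) and reversed to -0.16 in the wider class.

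The members with the steepest fitted rises were scarce in other cells. Hist1h2ag (H2A) had 1566 UMIs in cycling and 1 in other tumour-like cells, a pooled ratio of 36.9 (exact 95% counting interval 6.605 to 1457), and Hist2h3b (H3) had 1132 and 1, a ratio of 26.6 (4.77 to 1053). Hist1h3b (H3) followed, with a log2 rise of 3.99 ± 0.43 (SE) on 7 UMIs in other cells. Of the members that went the other way, Hist2h3c1 fell by 1.09 ± 0.29 (log2, SE; edgeR adjusted p = 0.020) and Hist3h2a by 0.63 ± 0.14 (edgeR adjusted p = 0.0054). Hist1h2bc, at -0.58 ± 0.20, missed the threshold (edgeR adjusted p = 0.067), passed it under RLE scaling (-0.71) and reversed to 0.029 with cells thinned to 1000 UMIs.

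**Figure D2:**
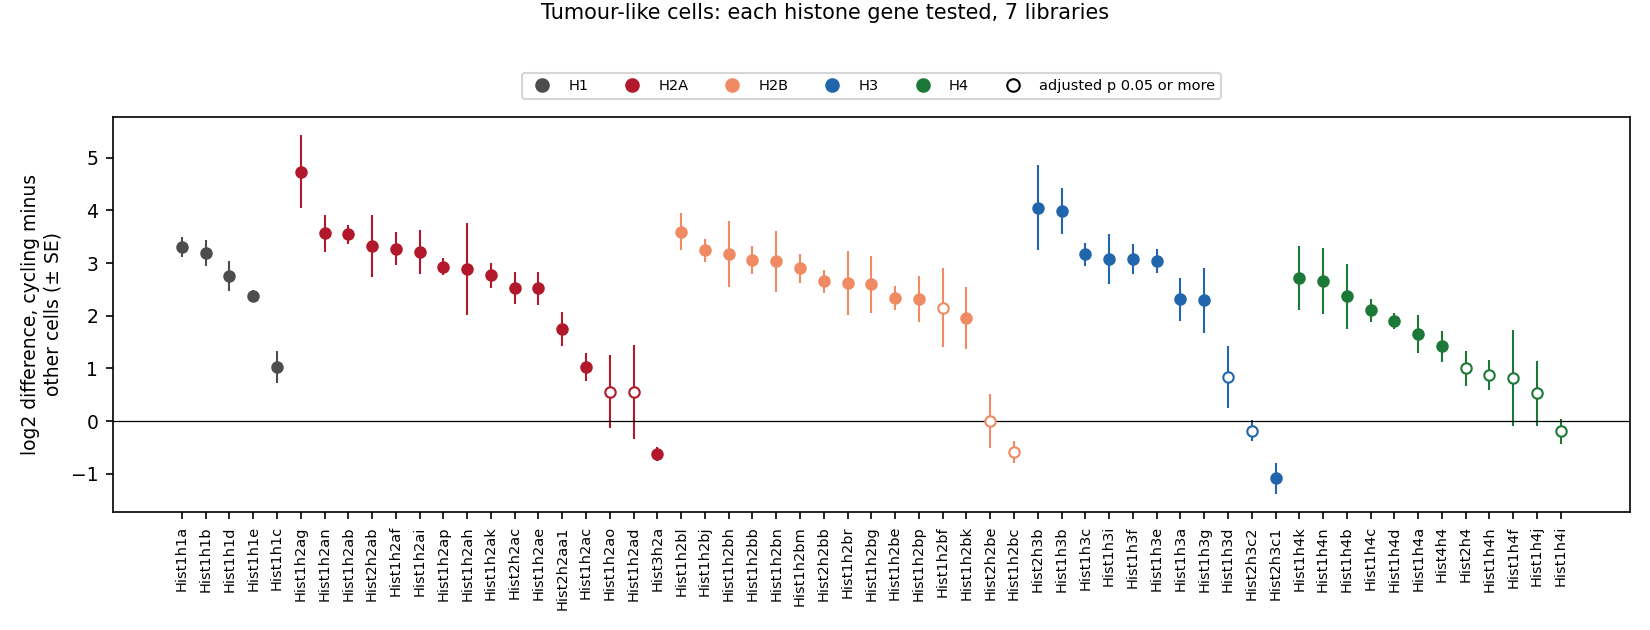
Log2 difference (± SE) of cycling against other tumour-like cells for the 59 histone genes tested, grouped by histone type; open symbols have an adjusted p of at least 0.05 in the edgeR quasi-likelihood test. Most points lie above 0 in each type, with Hist2h3c1 at -1.09 the lowest.

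The difference varied with the transcript model. Of members whose model ends near the stem-loop, 19 of 24 tested rose (median log2 difference 2.44), of those with no match 15 of 17 (3.08) and of those that run on past it 11 of 18 (1.22), with both falling members in this last group. Hist3h2a, whose model runs on for 1643 bases and overlaps Trim17, and Hist2h3c1, which runs on for 1167 bases, are the 2 that fell. The grouping by model was made after seeing the data and the difference between the groups was not tested.

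Of the 67 members, 43 (64.2%) were lower in cycling tumour-like cells of both UT and BP replicate 1 than in each of the other 5 libraries, where 11.1% of 26493 genes were, and 3 (4.48%) were higher in both, where 14.6% of genes were. The other 5 libraries averaged 3341 CPM for all members against 742 CPM in UT and BP replicate 1, a ratio of 4.50. By type the ratio was 7.10 for H1, 1.63 for H2A, 3.99 for H2B, 6.06 for H3 and 11.6 for H4. The H2A value rested on UT, where H2A genes had 562 CPM, 402 of it Hist1h2ap, against 138 CPM in BP replicate 1 and 432 to 775 CPM in the other 5 tumour-like libraries. Taken member by member, the median log2 ratio ran in another order, at 2.13 for H1, 1.27 for H2A, 1.80 for H2B, 2.15 for H3 and 1.31 for H4. The summed ratio was 7.90 for models that run on, 2.70 for those that end near the loop and 3.24 for those with no match, while the members' medians were 1.38, 1.80 and 1.53, so the groups' order depends on the few members that carry the sums.

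The same split appeared in other cell classes. In cycling T-like cells the ratio was 8.58, taken over BP replicate 2, BPI and CD40 because neither IgG library held 20 such cells. It was 7.80 in cycling monocyte/macrophage-like cells, 4.99 in cycling microglia-like cells, 9.50 in free RNA and 1.71 in other tumour-like cells. Over the lists of other genes in cycling tumour-like cells it was 0.89 for genes of S phase, 1.12 for genes of G2 and mitosis, 1.11 for genes that transcribe histone genes and process their 3′ ends, 0.91 for histone chaperones and 0.94 for replication-independent histone variants. UT and BP replicate 1 belong to different groups (untreated and BP). The clusters that make up each class move with this split and cannot be told apart from it by library. Most T-like and microglia-like cells of UT and BP replicate 1 lay in clusters 4 and 11, against clusters 8 and 21 in the other 5 libraries, and most monocyte/macrophage-like cells of BP replicate 1 lay in cluster 9, against cluster 7 in the rest. UT has the other barcode list and BP replicate 1 the list of the remaining libraries, and the part of the list in the split was not tested.

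**Figure D3:**
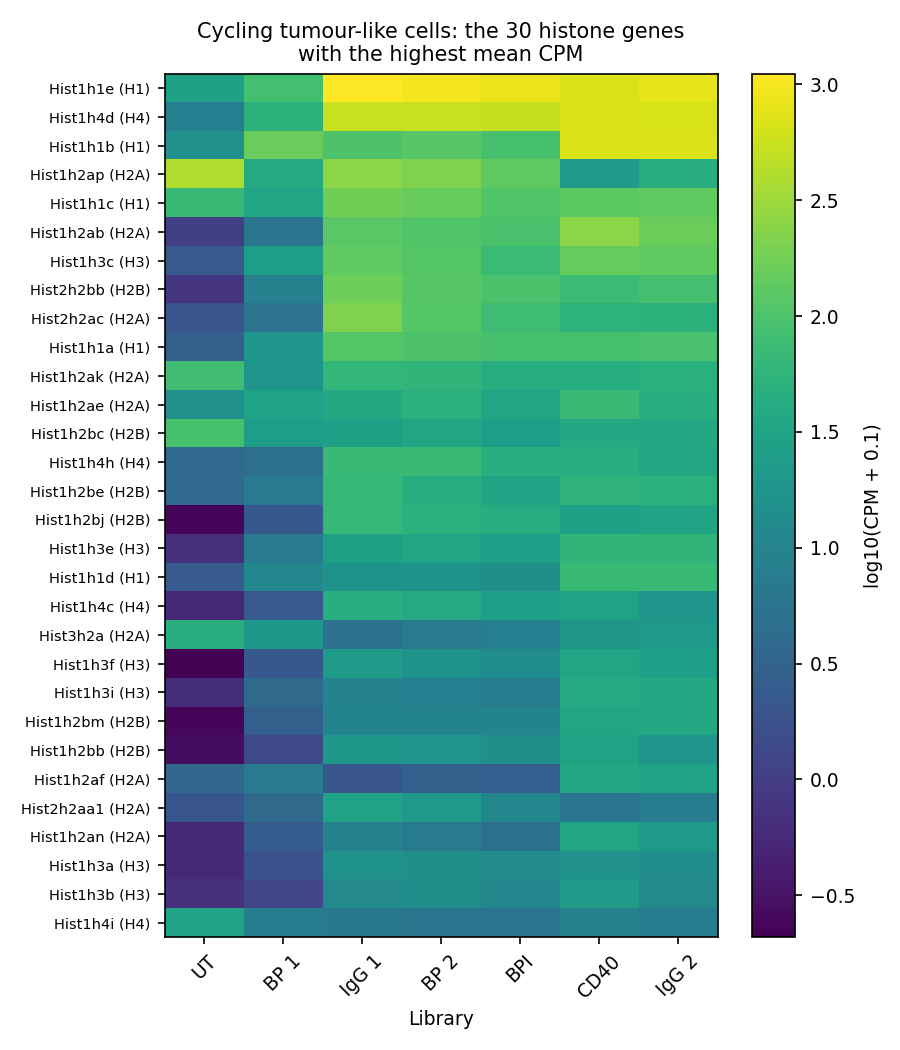
Level (log10 of CPM + 0.1) of the 30 histone genes with the highest mean in cycling tumour-like cells, by library. UT and BP replicate 1 are dark (low) in most rows, with exceptions such as Hist1h2ap, which is highest in UT (402 CPM), and Hist1h2bc (91.8 CPM in UT).

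The members' level rose stepwise with Top2a and Mki67 in cells thinned to 1000 UMIs. In UT it was 539 CPM at 0 UMIs, 739 at 1 and 1196 at 2 to 3, and in IgG replicate 2 it was 1536, 3399 and 5615 CPM at the same steps and 6893 at 4 or more. Every one of the 7 libraries rose at each step that held enough cells.

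Cycling tumour-like cells were then split by whether they held more UMIs of 28 S phase genes, which copy DNA, or of 28 G2/M genes, which drive mitosis. The members stood at 718, 479, 2275, 1796, 1934, 2256 and 2033 CPM in S-leaning cells and at 1128, 883, 5000, 4835, 3629, 5492 and 5685 CPM in G2/M-leaning cells. G2/M-leaning cells were higher in all 7 libraries. Of 62 members tested with edgeR, 55 were lower and 2 higher in S-leaning cells, where 24.2% of genes were lower and 22.6% higher, with a members' median log2 difference of -1.16 against 0.01 over all genes. In thinned cells 33 members were called, and without library as a block 1 was.

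Both H2A and H2B members were among those with the largest difference. Hist1h2bb (H2B) was lower in S-leaning cells by 1.72 ± 0.07 (log2 difference -1.72, SE 0.07) and Hist2h2ab (H2A) had -1.71 ± 0.13. Hist1h4d had -1.53 ± 0.07, Hist1h1e -1.21 ± 0.06 and Hist1h1b -0.96 ± 0.09. The 2 members higher in S-leaning cells were the H3 genes Hist2h3c1, at 0.96 ± 0.19 (edgeR adjusted p = 7.8e-04), and Hist2h3c2, at 0.66 ± 0.13 (adjusted p = 7.2e-04). Median depth was higher in G2/M-leaning cells in 6 of 7 libraries and lower in UT, where the members' difference had the same direction.

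With cells thinned to 1000 UMIs and binned by both lists together, the members were highest in cells that held at least 4 UMIs of each, at 1372, 1430, 4987, 5325, 4422, 8289 and 8488 CPM. Cells with at least 4 UMIs of the S list and 0 or 1 of the G2/M list had 371, 294, 1643, 1128, 1143, 1229 and 935 CPM. Cells with at least 4 UMIs of the G2/M list and 0 or 1 of the S list lay between, at 723, 647, 4893, 4062, 3297, 4397 and 4555 CPM. Cells with 0 or 1 of each list had 344, 448, 2500, 2226, 2249, 1405 and 1151 CPM, above the cells with only S list UMIs in 6 of 7 libraries. These bins were chosen after seeing the data, and between 1.94% and 5.37% of cycling cells lay near the S against G2/M boundary.

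**Figure D4:**
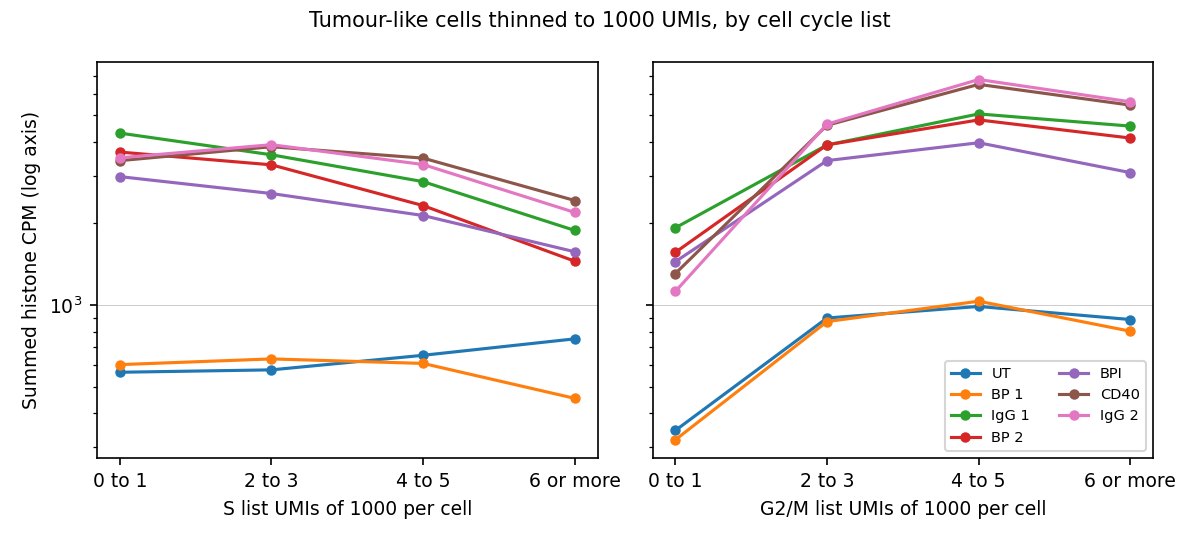
CPM of the 67 histone genes in tumour-like cells thinned to 1000 UMIs, by the number of UMIs of the S list and of the G2/M list, one line per library. In all 7 libraries the level climbs with G2/M list UMIs up to 4 to 5, reaching 6770 CPM in IgG replicate 2, and is lower at 6 or more (5604 CPM there).

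Lists of other genes of the pathway were read from the same edgeR test of cycling against other tumour-like cells, and differences between lists were not tested. Cells were split by Top2a and Mki67, so genes expressed together with these rise in part through the split itself. In the S list, 15 of 28 rose and 0 fell (median log2 difference 0.39), among them Tyms, which makes thymidylate (0.95), Ccne1, a cyclin of S phase entry (1.35), and Pcna, the replication clamp (0.41). In the G2/M list 26 of 28 rose (1.93), including the kinesin gene Kif11 (2.83) and Ube2c of the anaphase-promoting complex pathway (2.49). In the list for histone transcription and 3′ end processing 6 of 24 rose and 0 fell (0.25), among them Npat, the activator of histone gene transcription (0.63). In the chaperone list 15 of 21 rose and 0 fell (0.35), including Hjurp, which loads the centromeric H3 (1.25), while Pcna, Nasp and Nap1l1 lost their rise with thinned cells. Among 11 replication-independent variants 7 rose and 2 fell, with H2afx at 1.26, H3f3b at 0.35 and H3f3a at -0.35.

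At least 1 member UMI was found in 83.8% to 97.1% of cycling tumour-like cells, lowest in UT, and in 47.1% to 89.1% of other tumour-like cells, lowest in BP replicate 1. With each cell thinned to 1000 UMIs the shares were 39.3% to 72.8% and 21.2% to 49.0%. Mature neutrophils do not divide, but of the 27 neutrophil-like cells of BP replicate 1 only 24 were other cells and the rest were called cycling. The 27 cells had a member UMI in 48.1% (exact 95% interval 28.7% to 68.1%) at 367 CPM and a median of 1958 UMIs. Free RNA was estimated to supply 4.66% of the members' UMIs in these cells. The share in other tumour-like cells of BP replicate 1 did not exceed that in neutrophil-like cells. That estimate covers 27 cells of 1 library and the part of free RNA was not tested, so neutrophil-like cells are not used as a level without expression. The share in other tumour-like cells is read neither as expression nor as its absence.

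The same comparison was made in the 3 immune classes with enough cycling cells. In T-like cells they stood at 989, 580, 7619, 6503 and 6056 CPM in cycling cells of UT, BP replicate 1, BP replicate 2, BPI and CD40, the 5 libraries with at least 20 such cells, and at 75.0 to 1197 CPM in other cells of all 7. Of 38 members tested with edgeR, 36 rose and 0 fell, where 14.1% of genes rose, with a median log2 difference of 3.17. In monocyte/macrophage-like cells 18 of 28 tested rose and 0 fell (7.57% of genes rose; median 1.76). In microglia-like cells 23 of 27 rose (16.3% of genes rose; median 1.52), and Hist4h4, the H4 gene on chromosome 6, fell by 0.95 ± 0.25 (log2, SE), where 15.8% of genes fell. Without IgG replicate 2, 15 members were called in microglia-like cells in place of 24. With cells thinned to 1000 UMIs the members called were 15 in T-like, 1 in monocyte/macrophage-like and 3 in microglia-like cells, and without library as a block 4, 1 and 2.

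Free RNA bears on these levels unequally. The share of the members' UMIs that free RNA could supply, estimated from the tumour marker genes seen in each class, was 1.15% to 9.63% in cycling T-like cells and 24.2% to 50.1% in other T-like cells. It was 15.0% to 244% in cycling monocyte/macrophage-like and 12.9% to 181% in cycling microglia-like cells, where values over 100% show that the estimate exceeds what was seen. In classes with few cells, cycling NK-like cells had 291, 269 and 4065 CPM in UT, BP replicate 1 and BPI, so that 1 library carried their mean, with a free RNA share of 10.9% to 39.6%. Cycling endothelial-like cells averaged 856 CPM (4 libraries) and cycling mural-like cells had 2307 CPM (1 library), where free RNA could supply 63.6% to 179% and 89.1%.

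The members' summed CPM was higher in cycling T-like than in cycling tumour-like cells in 4 of 5 libraries and lower in BP replicate 1 (580 against 623 CPM). Cycling T-like cells were shallower, with median UMIs of 3935 to 9883 per cell against 10703 to 21417 in cycling tumour-like cells. The same cut of 1 UMI of Top2a or Mki67 set the call at both depths, and its part in the difference was not tested. Of 61 members tested with edgeR over 5 libraries, 38 were higher and 3 lower in T-like cells, where 20.2% of genes were higher and 30.7% lower, and the median log2 difference was 1.34 against -0.30 over all genes. With cells thinned to 1000 UMIs 8 members were called in place of 41, and without library as a block 9 were. Hist1h1b was at 54.9, 160, 1092, 999.3 and 1085 CPM in cycling T-like cells of UT, BP replicate 1, BP replicate 2, BPI and CD40, a log2 difference of 2.09. T-like cells were higher in each of these libraries, though by little in BP replicate 1. The difference was 1.90 for Hist1h2ae (H2A) and 0.62 for Hist1h1e.

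The largest differences belonged to scarce members. Hist3h2ba, the H2B gene on chromosome 11, had a log2 difference of 5.03 ± 0.63 (SE; edgeR adjusted p = 3.7e-05) on 22 UMIs in cycling T-like cells, and Hist1h3h (H3) 3.92 ± 0.62 (adjusted p = 2.6e-04) on 21. Hist2h3c2 was lower in T-like cells, with 3 UMIs against 2005 in tumour-like cells, and the pooled ratio of tumour-like to T-like was 17.7 (exact 95% counting interval 6.04 to 85.8). Hist3h2a, at -1.33 ± 0.52 (edgeR adjusted p = 0.049), was not called without UT (-0.70) or without BP replicate 1 (-1.03) and reversed to 0.054 without both.

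**Figure D5:**
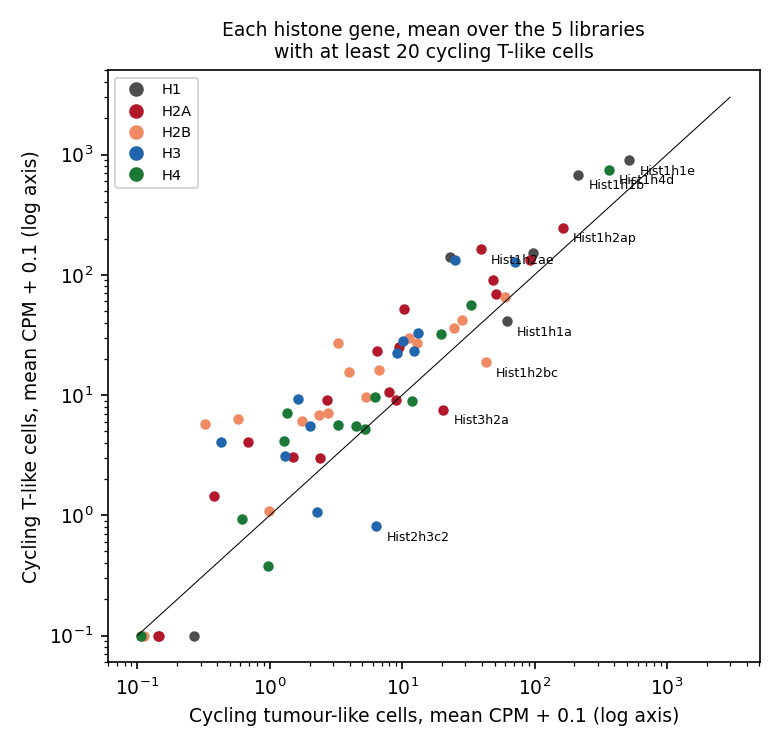
Mean CPM + 0.1 (log axes) of each histone gene in cycling T-like (vertical) against cycling tumour-like cells (horizontal) over the 5 libraries with both; the line marks equal levels. Most members lie above the line, Hist1h1b among them, while Hist2h3c2 lies below it.

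Cycling monocyte/macrophage-like cells were compared with cycling tumour-like cells in the same way. Of 61 members tested with edgeR, 0 were higher and 25 lower than in cycling tumour-like cells, where 25.1% of genes were higher, 34.8% lower and 59.8% either (members' median -0.89, all genes -0.29), so that the share of lower calls was near that background and the share of higher calls below it. With cells thinned to 1000 UMIs 8 members were called, and without library as a block 2 were. DESeq2 called 1 member higher, and 28 members had an unadjusted p under 0.05 in edgeR. The linker histone gene Hist1h1a was at 0.86, 2.27, 28.2, 12.0, 32.7, 15.0 and 7.93 CPM against 2.71, 19.1, 112, 101, 92.1, 92.8 and 93.7 CPM in tumour-like cells, lower in all 7 libraries, with a log2 difference of -2.21 ± 0.24 (SE). Hist1h2ah (H2A) had 1 UMI against 917, a pooled ratio of tumour-like to monocyte/macrophage-like cells of 26.2 (exact 95% counting interval 4.69 to 1036).

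The classes were also compared in other cells. Against tumour-like cells, 8 of 24 members tested were higher and 3 lower in T-like cells (31.8% and 33.5% of genes, 65.3% together), 0 of 21 higher and 9 lower in monocyte/macrophage-like cells (34.4% and 33.0%, 67.4% together) and 8 of 28 higher and 4 lower in microglia-like cells (35.4% and 33.1%, 68.6% together), by edgeR. The share of members called was above that of all genes for lower calls in monocyte/macrophage-like cells, near it for higher calls in T-like cells and below it in the remaining counts. In monocyte/macrophage-like cells the 9 calls became 23 in thinned cells, 27 with the wider tumour-like class and 15 with doublets kept, and in microglia-like cells 12 became 20 in thinned cells. Without library as a block, 2, 3 and 3 members were called in the 3 classes. In monocyte/macrophage-like cells, 10 members had an unadjusted p under 0.05, DESeq2 called 0 higher, and leaving out BP replicate 1 gave 4 members called. Without UT, and also without BPI, 6 members were called in T-like cells, and without IgG replicate 2, 7 in microglia-like cells. RLE scaling moved the median of all genes from -0.05 to -0.30 in the T-like comparison and the members' calls to 6 higher and 4 lower.

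Named members differed by class. Hist3h2ba had 17 UMIs in other T-like and 2 in other tumour-like cells, a pooled ratio of 14.9 (exact 95% counting interval 3.53 to 133), and Hist1h2bc was lower in T-like cells by 2.65 on the log2 scale (difference -2.65 ± 0.33, SE). Hist1h4i (H4) was at -2.35 ± 0.57 and Hist1h3f at 2.07 ± 0.62, which reversed to -0.26 in thinned cells. In monocyte/macrophage-like cells Hist2h3c2 was at -3.07 ± 0.50 and Hist1h3c at -1.63 ± 0.50. In microglia-like cells Hist1h2bg (H2B) was at 3.22 ± 0.53, Hist4h4 at 2.99 ± 0.39, Hist2h3c2 at -2.20 ± 0.52 and Hist1h1b at -1.79 ± 0.41 (log2, SE).

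Cycling T-like cells were shallower than cycling tumour-like cells in the next test too, and the part of depth in it was not tested. Whether the cycling difference itself differed between T-like and tumour-like cells was tested with an interaction term over 5 libraries. It was larger in T-like cells for 11 of 48 members tested with edgeR and smaller for 0, where 5.54% of genes were larger, 3.63% smaller and 9.16% either. Hist1h2ae had a log2 interaction of 2.85 ± 0.53 (SE; edgeR adjusted p = 0.0012), Hist1h1b of 2.43, Hist1h2ap of 1.77, Hist1h2ak of 1.75 and Hist1h4d of 0.85. Hist1h3d (H3) had 28 UMIs in cycling and 0 in other T-like cells, so its cycling level there was at least 7.12-fold higher (floor of 3 UMIs over the pooled group). The count rested on few libraries: 2 members were called without UT, 5 without BP replicate 1, 6 without BP replicate 2, 4 without BPI, 1 without UT and BP replicate 1, and 0 with low-depth tumour-like clusters left out.

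The treatments were compared with IgG in sums over all cells of a class. In tumour-like cells 0 of 64 members were called in BP, BPI or CD40 by edgeR, where 0% of genes were called in each. The members' median log2 difference was -0.92 in BP, -0.43 in BPI and 0.12 in CD40. The BP value includes BP replicate 1, and BP replicate 2 against IgG replicate 1 alone had a members' median of -0.15 (1 library each). At an unadjusted p under 0.05 edgeR had 0 members in each of the 3 treatments, and DESeq2 called 0, with 6, 1 and 1 at an unadjusted p under 0.05. The same held for cycling tumour-like cells alone (0 of 64, 0% of genes). Within the sets, BP replicate 2 had 0.87 times the summed members of IgG replicate 1 of the same set, BPI 0.71 times, and CD40 1.01 times those of IgG replicate 2, with 1 library each and no test. In monocyte/macrophage-like cells the ratios were 0.45, 0.28 and 0.91, and in microglia-like cells 0.50, 0.40 and 0.87. All 25 microglia-like members with enough UMIs were lower than IgG replicate 1 in both BP replicate 2 and BPI, where 47.0% and 35.9% of all genes were higher. Members entered on the UMIs of both compared libraries together, and only 12 entered for BPI against BP replicate 2. Many of the 25 thus entered through their counts in IgG replicate 1, so this count is not read as a result. The share of cycling microglia-like cells was 40.6% in IgG replicate 1, 16.4% in BP replicate 2 and 13.2% in BPI, and in cycling cells alone the microglia-like ratios were 0.54 in both. Over all cells, free RNA could supply 16.8% to 150% of the members' UMIs in monocyte/macrophage-like and 14.7% to 97.6% in microglia-like cells, and its part in these ratios was not tested.

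UT against IgG had a median log2 difference of -3.28 over 63 members in tumour-like cells, with 0 called by edgeR (0% of genes called), 26 at an unadjusted p under 0.05 and 27 called by DESeq2. With library set A as a term 3 were higher and 15 lower, where 260 and 196 of 19954 genes were. In monocyte/macrophage-like cells 0 of 39 members were called by edgeR (0% of genes), with 12, 3 and 0 at an unadjusted p under 0.05 in BP, BPI and CD40 and 3 called by DESeq2. Most cells of BP replicate 1 in this class lay in cluster 9, which held no cell of either IgG library. Other fits called members lower: with library set A as a term 18 in BP and 10 in BPI, where 208 and 61 of 11838 genes were lower, and without BP replicate 2, 11 in BP (59 of 12267 genes). Without IgG replicate 1, 3 were lower in BP and 2 in BPI (153 and 111 of 12239 genes), and with no filter 9, 3 and 1 in BP, BPI and CD40 (fewer than 1% of 21356 genes in each). In microglia-like cells 0 of 44 were called by edgeR (0% of genes), with 12, 3 and 1 at an unadjusted p under 0.05 and 0 called by DESeq2, and without BP replicate 2, 22 were lower in BP and 1 in BPI (447 and 21 of 13307 genes). With no filter 10 were lower in BP and 1 in CD40 (109 and 25 of 22104 genes).

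In T-like cells 2 of 32 members were higher in BP (0.608% of genes were higher and 0.760% changed either way), 5 in BPI (0.467% and 0.597%) and 2 in CD40 (0.0543%) by edgeR, and 0 were lower. Hist1h1b had 51, 1080, 0, 255, 769, 335 and 5 UMIs, or 26.3, 105, 0, 343, 420.3, 448 and 22.5 CPM, so both IgG libraries and UT were below every treated library. UT and BP replicate 1 also had the lowest summed members of the 5 libraries with enough cycling T-like cells, so UT is no second reference beside IgG. Its log2 difference was 3.88 ± 0.68 in BP (SE; edgeR adjusted p = 1.9e-04), 4.97 ± 0.71 in BPI and 4.89 ± 0.71 in CD40. Hist1h2ae, with 1 and 0 UMIs in IgG, was called in all 3 contrasts. Hist1h2ap, Hist1h1d (H1) and Hist1h3e were called in BPI, at 3.85, 3.20 and 4.13. In IgG replicates 1 and 2 they had 3 and 0, 3 and 2, and 1 and 1 UMIs. Nearly all UMIs behind these calls lay in the treated libraries, so the fitted values are no bounds and the counts of calls are not read as a result. The comparisons share their IgG libraries.

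IgG held few T-like cells, 39 and 58 in replicates 1 and 2, of which 9 and 2 were cycling, while BP replicate 2, BPI and BP replicate 1 held 228, 594 and 1294 and CD40 a number between those of IgG and BP replicate 2. In the treated libraries 21.1% to 45.6% were cycling, a range that holds IgG replicate 1 (23.1%) but not IgG replicate 2 (3.45%). In IgG replicate 2 the members' level in these sums cannot be told apart from the low share of cycling T-like cells. In other T-like cells alone the summed members of BP replicate 2, BPI and CD40 were 1.02, 1.04 and 0.87 times those of the IgG library of the same set. With doublets kept, Hist1h1b was at -0.21 in BP and 0 members were called over the 3 contrasts, DESeq2 called 0, the replicate block called 29, and leaving out 1 library gave 3 (without IgG replicate 2), 14 (without BP replicate 1) or 19 (without BP replicate 2, 5 of them lower in BP) in place of 9.

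The share of tumour-like cells that were cycling was 60.2, 94.4, 98.0, 97.5, 95.4, 94.5 and 94.96%. Top2a and Mki67, of which 1 UMI sets the call, stood together at 261 to 790 CPM in free RNA, whose part in these shares was not tested. UT stood at 91.1% with low-depth tumour-like clusters left out, and in cells thinned to 1000 UMIs the shares were 24.3% (UT) to 60.7% (CD40). BP and IgG differed by -0.51 percentage points (95.96 ± 2.24 against 96.47 ± 2.14%, SD, n = 2 each; two-sided exact permutation p = 0.67, where the smallest possible is 1 in 3), less than the spread between replicates. The difference turned to 1.07 points without BP replicate 1 and to 1.005 without IgG replicate 1. In thinned cells it was -3.89 points (54.75 ± 2.58 against 58.65 ± 2.27%, SD, n = 2 each), larger than either SD, with the smallest exact permutation p possible, 1 in 3.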

How the data were processed

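Whole NSCG brain tumours were measured by 10x Genomics 3′ single-cell RNA sequencing in 7 libraries. The files hold raw UMI counts, deposited for every barcode and so not restricted to cells. Per the file headers the counts come from Cell Ranger 4, while the submitters' processing notes name Cell Ranger 7.0.1 and the build mm10. The labels give V2 chemistry for all libraries, although UT draws on another barcode list. Positions came from GENCODE vM21 (GRCm38), found for 67 of 67 members.

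A barcode was kept as a cell with 1000 or more UMIs, 500 or more genes and no more than 15% of UMIs from mitochondrial genes. The highest Scrublet scores, 0.8% per 1000 cells (3207 barcodes, 4.50% to 8.44% of a library), were removed as doublets. Clusters (scanpy 1.11.5, Python 3.11.15, 2000 variable genes without the members, 30 components, Leiden resolution 1.5) were named "X-like" where at least 3 markers of a class were raised, unless their 10 leading genes held more markers of another class, or they were shallow with no marker of their own among those genes. This left 4512 cells unnamed. The wider tumour-like class adds 3 of these clusters. One of 1494 cells, nearly all from UT, had 9 of 11 tumour markers raised and one of 470 had 11 of 11. The largest, of 2435 cells, had 1 of 11 raised and a median depth of 0.14 relative to the library medians. Counts were summed per library, class and state (at least 20 cells) and tested over all genes with edgeR 4.0.16 (R 4.3.3; quasi-likelihood, TMM, filterByExpr, Benjamini-Hochberg at 0.05). DESeq2 1.42.0 was an alternative, and the scripts were tested on simulated data. In treatment fits BPI, CD40 and UT, with 1 library each, were taken to vary as IgG and BP do. Intervals are exact 95% intervals and, like the floor of 3 UMIs, cover counting error only.

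Named members were, by rule, the 3 highest of each histone type in cycling tumour-like cells, the 3 with the largest and smallest cycling difference, the 3 highest in other cells, the 2 with the largest called difference in each direction of each further comparison, members called in a treatment contrast, and Hist1h1b. The members, gene lists and tests were chosen with earlier results of these data known. A few more members were named after their values were seen (Hist1h2ak, Hist1h4d and Hist1h1e in later comparisons).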

Additional observations from a re-analysis of the deposited data

Results flagged for a closer look

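In 11 members the cycling difference differed between T-like and tumour-like cells by the interaction term of the edgeR quasi-likelihood test. The log2 interaction was 2.85 for Hist1h2ae and 9.12 for Hist1h3d, the second a fitted value against 0 UMIs in other T-like cells that depends on the prior count and is no bound. Cells that no marker list named had their highest summed member level in IgG replicate 1, at 7819 CPM (1117 cells, median 1560 UMIs). No group has enough libraries for a check of single outlying libraries.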

How the results depend on the processing

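Over 73 results and 1143 alternatives, 953 kept their direction and side of the threshold, 156 fell below it, 18 passed it and 16 reversed; the cause was not tested unless fewer libraries or genes were used. Members called under alternatives were as follows. Without the library block, 3 were called in cycling against other tumour-like cells, 4 in T-like, 1 in monocyte/macrophage-like and 2 in microglia-like cells, 1 for S- against G2/M-leaning cells, 9 and 2 for T-like and monocyte/macrophage-like against tumour-like cycling cells, 2, 3 and 3 for T-like, monocyte/macrophage-like and microglia-like other cells, and 0 for the interaction. With cells thinned to 1000 UMIs the same comparisons gave 15 (T-like cycling difference), 1 (monocyte/macrophage-like), 3 (microglia-like), 33 (S against G2/M), 8 and 8 (cycling cells by class), 23 (monocyte/macrophage-like other cells) and 20 (microglia-like other cells). With doublets kept they gave 27 for T-like cycling cells, 15 for monocyte/macrophage-like other cells and 0 for treatment in T-like cells. With no filter they gave 37 for the microglia-like cycling difference, 18 for T-like other cells, and 13 and 11 for treatment in monocyte/macrophage-like and microglia-like cells. With cycling set from 2 UMIs, T-like other cells gave 17. The wider tumour class gave 25, 27 and 5 for the tumour-like cycling difference, monocyte/macrophage-like other cells and the interaction, and leaving out low-depth tumour clusters gave 5 and 0 for the last 2. Without UT and BP replicate 1 the interaction gave 1. DESeq2 gave 0, 3 and 27 for treatment in T-like and monocyte/macrophage-like cells and for UT, and library set A as a term 16, 28 and 18.

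Same-numbered IgG and BP libraries deviated in opposite directions (correlation -0.71 over 15082 genes), so the numbers do not pair them. With the replicate block 29 members were called for treatment in T-like cells, 1 in monocyte/macrophage-like and 1 in microglia-like cells. The crossed pairing, added after seeing the data, gave 5 in tumour-like, 2 in cycling tumour-like, 30 in monocyte/macrophage-like cells and 43 for UT.

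Leaving out 1 library gave 41 to 49 members for the tumour-like cycling difference, 29 to 36, 14 to 21 and 15 to 30 for T-like, monocyte/macrophage-like and microglia-like cells, and 54 to 57 for S against G2/M. It gave 33 to 41 and 19 to 29 for cycling cells by class, 6 to 11, 4 to 13 and 7 to 11 for other cells by class (12 in the last without UT and BP replicate 1), and 2 to 11 for the interaction. For treatment it gave 0 to 0 in tumour-like, 0 to 0 in cycling tumour-like, 3 to 19 in T-like, 0 to 11 in monocyte/macrophage-like and 0 to 23 in microglia-like cells, and 0 to 0 for UT. The cycling share difference ranged from -2.10 to 1.07 points, turning at 1.07 without BP replicate 1 and 1.005 without IgG replicate 1.

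Log2 differences that reversed in thinned cells were Hist1h2bc at 0.029, Hist1h3f in T-like other cells at -0.26, Pcna at -0.16, Snrpb at -0.047, Nap1l1 at -0.069 and Nasp at -0.10. In the wider class Hist1h4h was at -0.16 and Mcm7 at 0.080, and with low-depth clusters left out Mcm7 was at 0.044, Snrpg at 0.19 and Snrpf at 0.22. Snrpf was also at 0.049 with no filter, between -0.082 and 0.085 (without BP replicate 1 and without UT) with 1 library left out, and 0.043 without UT and BP replicate 1. Hist3h2a in T-like cycling cells ranged from -1.81 to -0.70 with 1 library left out and was at 0.054 without UT and BP replicate 1, and Hist1h1b for BP in T-like cells at -0.21 with doublets kept. The fewest UMIs lay behind members scarce in other cells and behind T-like cells in IgG, and whether depth moved their calls was not tested.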

Other observations

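Unnamed cells carried the members at 902 CPM in UT, 513 in BP replicate 1, 6140 in BP replicate 2, 4395 in BPI, 952 in CD40 and 1086 in IgG replicate 2. The 3 libraries of set A, the highest, had median depths of 1560 to 1767 UMIs in these cells, against 8769 to 19265 in the other 4. Free RNA of the same 3 libraries stood at 4486 to 6203 CPM, above the 433 to 3736 CPM of the other 4.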
